A study of Mus musculus with 6 samples.

Results

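The SLC25 family is a set of proteins, here termed carriers, most of which move solutes across the inner membrane of mitochondria. Its members were taken as every gene of the deposited mouse heart table whose symbol is Slc25a followed by a number, which gave 47 of 49585 genes. Hearts came from male mice aged 8 or 9 weeks. The 3 ground control libraries (GC1 to GC3) were from mice at 1 g, named as C57BL/6J and numbering 6 per mission. The 3 lunar gravity libraries (LG1 to LG3) were from mice held at 0.167 g in habitat cages on a space station, in a centrifuge (radius 15 cm, 31 rpm), and no strain is named for them. Whether each library was a separate animal is not stated, so the p-values here reflect only how far libraries differ, which may be technical. Station mice at 1 g were not analysed here, so gravity and the other differences between station and ground cannot be told apart.

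SLC25 proteins share a fold made of repeats of a pair of membrane helices, and most exchange a substrate in the matrix for another in the intermembrane space. In the heart, ADP/ATP and phosphate carriers feed ATP synthase and export its product. The aspartate/glutamate and oxoglutarate carriers run the malate-aspartate shuttle, which brings the reducing power of cytosolic NADH into the matrix, and the carnitine carrier brings in fatty acids as acylcarnitines. Other members carry cofactors, nucleotides, amino acids or iron.

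Promoter windows of 300 bases (250 before and 50 after the start) were present in the RefSeq table for 36 of the 47 carriers, as 46 windows on GRCm38.p6. A window is shown for each of the 2 carriers whose exon counts differed between the groups, Slc25a28 and Slc25a22, and for Slc25a4, the carrier of highest level, so that they can be compared. Capitals mark the letters GGGCGG (a GC box) and CCAAT. Both strands were searched, and every match in these windows read on the gene's own strand. For Slc25a22, which has 3 windows, the most upstream is shown.
Slc25a28 (chr19:43674832-43675131, minus strand): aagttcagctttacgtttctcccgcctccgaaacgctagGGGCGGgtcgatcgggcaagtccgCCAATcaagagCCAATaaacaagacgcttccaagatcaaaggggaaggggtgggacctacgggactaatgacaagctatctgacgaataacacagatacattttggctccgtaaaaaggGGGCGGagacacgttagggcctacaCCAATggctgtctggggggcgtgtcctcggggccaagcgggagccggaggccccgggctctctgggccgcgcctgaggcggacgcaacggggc
Slc25a22 (chr7:141437825-141438124, minus strand): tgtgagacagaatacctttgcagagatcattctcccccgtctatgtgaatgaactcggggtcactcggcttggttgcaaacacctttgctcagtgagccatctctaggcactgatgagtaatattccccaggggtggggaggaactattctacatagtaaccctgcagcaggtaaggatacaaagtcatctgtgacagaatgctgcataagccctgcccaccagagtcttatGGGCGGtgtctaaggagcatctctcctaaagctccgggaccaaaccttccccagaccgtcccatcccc
Slc25a4 (chr8:46211013-46211312, minus strand): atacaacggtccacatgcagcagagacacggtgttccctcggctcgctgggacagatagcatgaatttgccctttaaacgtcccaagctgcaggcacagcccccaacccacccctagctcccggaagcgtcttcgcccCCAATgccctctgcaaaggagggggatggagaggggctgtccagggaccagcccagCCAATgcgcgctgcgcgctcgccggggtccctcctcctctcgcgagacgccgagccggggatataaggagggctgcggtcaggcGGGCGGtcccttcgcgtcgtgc
The Slc25a28 window, with 60.0% G or C, held 2 GC boxes and 3 CCAAT boxes, the Slc25a22 window (51.7%) held a single GC box, and the Slc25a4 window (65.7%) held 2 CCAAT boxes and a GC box. CCAAT was present in another of the Slc25a22 windows, which is not shown. GGGCGG on either strand was in 82.6% of the family's windows and in 35.7% of all 32851 windows of that table. CCAAT was in 47.8% against 37.4%, and the E-box CACGTG in 17.4% against 7.15%. The letters GCGCANGCG, of the kind bound by NRF1, a regulator of nuclear genes for mitochondrial proteins, were in 4.35% of the family's windows, those of Slc25a3 and Slc25a31, against 6.25%. TNAAGGTCA, of the kind bound by oestrogen-related receptors, was in none of the 46 and in 1.28% of all windows. The median G or C content was 59.3% in the family's windows and 52.7% in all. No motif searched contains another. These are counts of letters in fixed windows and show no binding.

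Before any result, GC3 needs a remark. Its title and treatment label make it a ground control, and it was used as such, whereas the header of the deposited table files it with the partial gravity columns, leaving 2 libraries headed GC and 4 headed PG. Values without GC3, and with GC3 moved to the lunar gravity side, are given for the carriers that were called. Total counts ran from 6461213 to 8271553 per library. Cardiomyocyte markers were present throughout at a summed 61834 to 62776 scaled CPM (counts divided by the library total after TMM scaling) in the ground controls and 49604 to 54914 in lunar gravity, with 3 of 8 called lower (Myh6, Actc1 and Ryr2) and none higher. The other 5 (Tnnt2, Tnni3, Myl2, Myl3 and Mybpc3) had log2 fold changes of -0.04 to 0.09, so the lower sum was that of Myh6, Actc1 and Ryr2. Of the markers of other cells, 4 of 8 for fibroblasts and 4 of the 4 tested for cycling cells were lower. For smooth muscle and pericytes, 2 of 7 were higher and 1 was lower. Of the 2 tested in the skeletal muscle list, Acta1 was lower and Ckm was not called. Myh1, Myh2 and Myh4 of that list were at 0 counts, so these 2 need not mark skeletal muscle here. None was called for endothelium, leukocytes, adipocytes, red cells or nerve, and Ucp1 and Snap25 were at 0 counts too. In bulk RNA, fewer cells of a type and less RNA per cell cannot be told apart, and the part of these shifts in the carriers' values was not tested.

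The family's RNA was dominated by a few carriers. Levels between genes are compared here as the deposited RPKM (reads scaled by exon length and library depth), averaged over all 6 libraries. Slc25a4, the heart and muscle ADP/ATP carrier, stood at 705 RPKM, far above the next carrier, the phosphate carrier Slc25a3 at 117 RPKM. They were followed by the oxoglutarate carrier Slc25a11 (88.7 RPKM), the more widely expressed ADP/ATP carrier Slc25a5 (70.3 RPKM), the carnitine/acylcarnitine carrier Slc25a20 (31.8 RPKM) and Slc25a34, whose substrate is not settled (24.1 RPKM). The aspartate/glutamate carrier Slc25a13 (18.6 RPKM) and the glutathione carrier Slc25a39 (17.1 RPKM) completed the first 8, which held 91.0% to 91.8% of the family's summed RPKM in every library. The library ranges of each of the first 6 carriers lay clear of the next, while those of Slc25a13, at 17.4 to 19.6 RPKM, and Slc25a39, at 14.5 to 18.8 RPKM, overlapped. In all, 10 carriers reached 10 RPKM and 31 reached 1 RPKM.

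**Figure D1:**
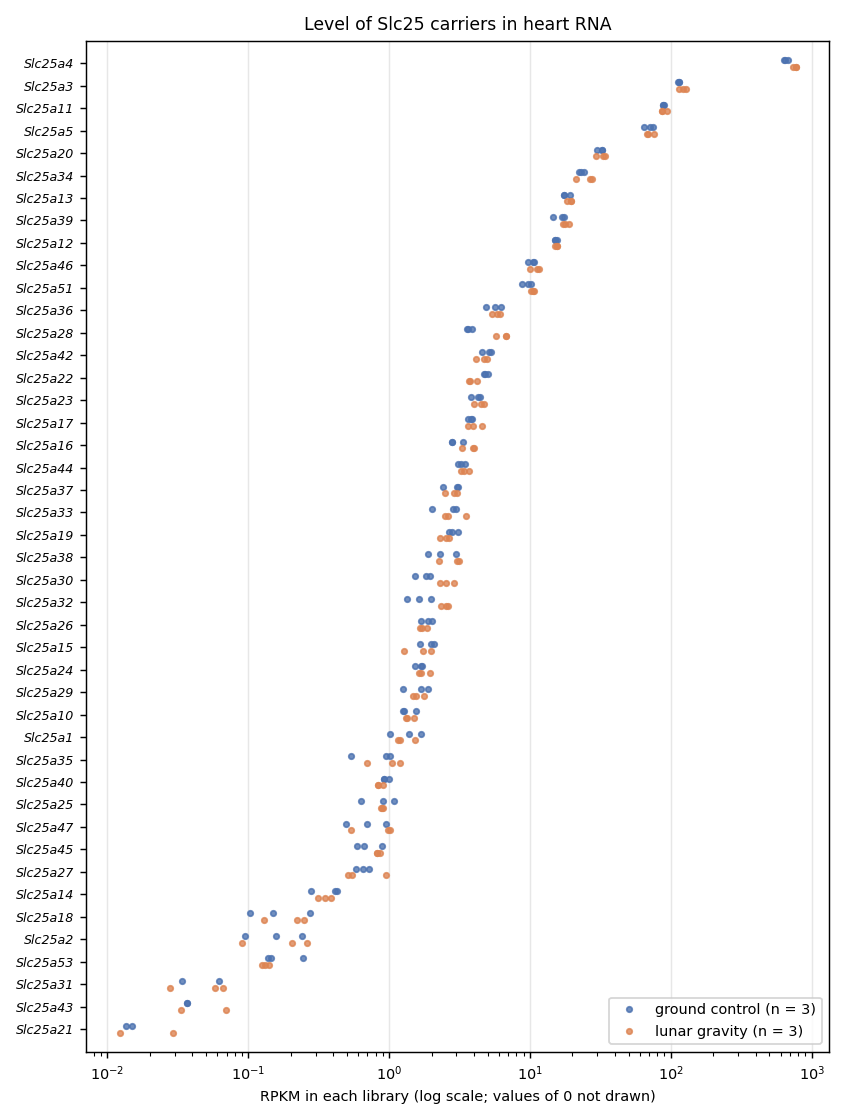
RPKM of the Slc25 carriers in each of the 6 libraries on a log axis, ordered by mean level, with ground control in blue and lunar gravity in orange (n = 3 each). Slc25a4 stands alone at the top with a mean of 705 RPKM, and values of 0 are not drawn. RPKM is not TMM scaled and was higher in lunar gravity by a median log2 of 0.12 over 12255 genes, so the groups are not compared here.

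In all, 8 carriers fell under the filter on low counts and were not tested. Slc25a2 (ornithine carrier 2), Slc25a41 (a short ATP-Mg/phosphate carrier), Slc25a48 and Slc25a54 had 0 expression counts in all 6 libraries, and a count of 0 allows up to 3 counts, or 0.363 to 0.464 CPM depending on the library. For Slc25a2 the expression counts leave out exon reads placed at several sites, which give it 0.0902 to 0.259 RPKM with 0% of exon reads placed uniquely. Slc25a21 (oxoadipate), Slc25a31 (the ADP/ATP carrier of the testis) and Slc25a43 never exceeded 2 counts. Slc25a18, a glutamate carrier related to Slc25a22, had 3 to 8 counts. The carriers lie on 19 chromosomes, with exon lengths of 1331 to 9594 bases (median 2945).

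Comparing lunar gravity with ground control asks how RNA of the heart differed between those settings. Most of the carriers did not pass the test: in the exon counts, 2 of the 39 tested were called at an adjusted p under 0.05 (edgeR), Slc25a28 higher and Slc25a22 lower. The share called over all 12258 genes tested was 3.77%, so 2 of 39 is near the background. For 11 of the 39 the libraries of the groups did not overlap, 4 higher and 7 lower in lunar gravity, where over all genes tested this share was 20.6%. The median log2 fold change of the 39 was -0.05, with 27 below 0 and 12 above, beside a median of 0.00067 over all genes tested. The 95% interval lay within 1.5-fold in either direction for 28 of the 39 and within 2-fold for 38, so a change of over 1.5-fold was outside the interval for most carriers, and smaller changes were not resolved for each of them.

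**Figure D2:**
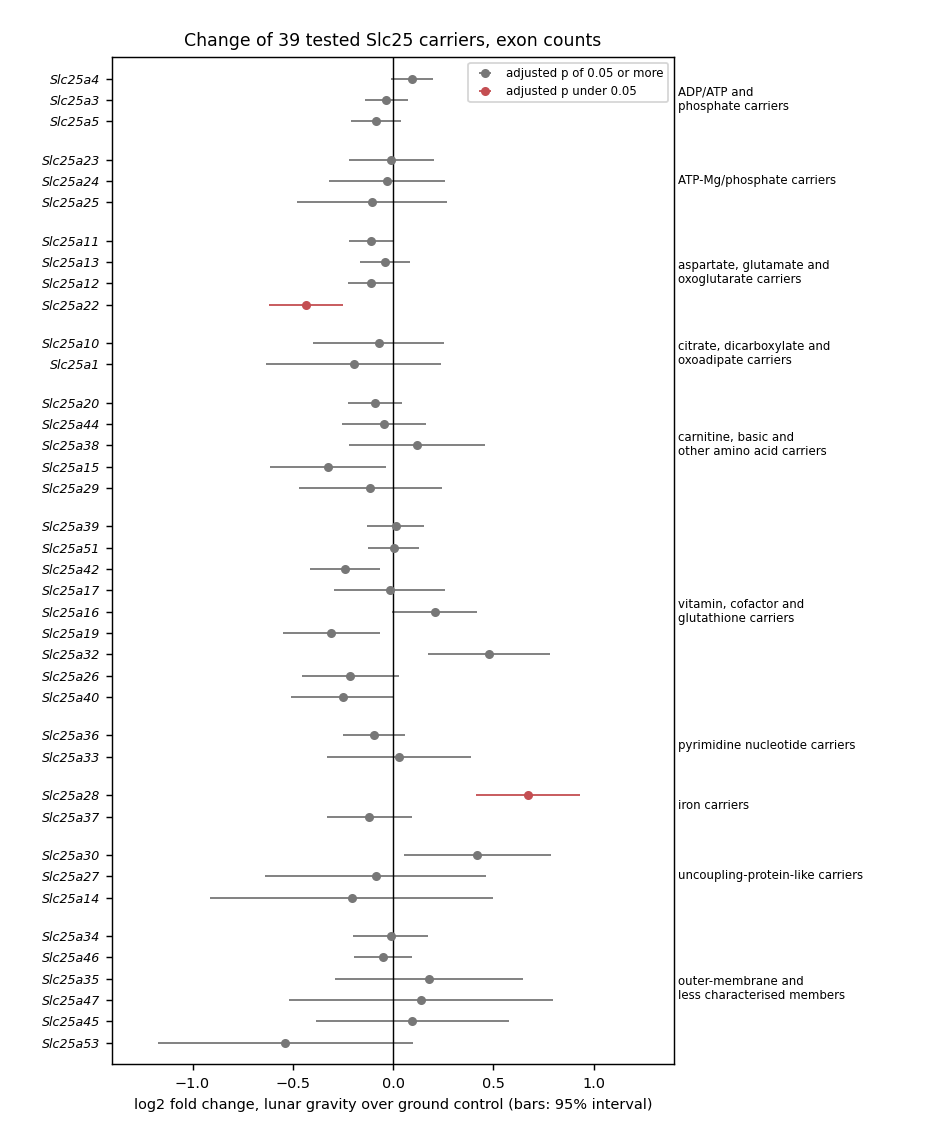
Log2 fold change of scaled exon counts, lunar gravity over ground control, for the 39 tested carriers grouped by substrate, with 95% intervals (3 libraries per group). Only Slc25a28 at 0.67 and Slc25a22 at -0.44 are drawn in red, for an adjusted p under 0.05.

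Of the iron carriers, 1 of 2 tested was called, and it was higher, where the share called over all genes tested was 3.77%. The call is that of a single gene and is no result about iron carriers as a group. Slc25a28 (mitoferrin-2; ENSMUSG00000040414, chromosome 19, 43663822 to 43674881, minus strand, GRCm38) imports iron into mitochondria for iron-sulphur clusters and haem. It stood at 12.1, 12.7 and 12.01 scaled CPM in GC1 to GC3, against 20.6, 20.6 and 17.5 scaled CPM in LG1 to LG3. All 3 lunar gravity libraries were above all 3 ground controls. Its mean rose from 12.3 ± 0.381 to 19.6 ± 1.79 scaled CPM (SD, n = 3), a 1.59-fold rise (log2 fold change 0.67, SE 0.126, 95% interval 0.41 to 0.93; edgeR adjusted p = 0.00229). Without GC3 the log2 fold change was 0.66 (edgeR adjusted p = 0.00926), and with GC3 counted as lunar gravity it was 0.52 and no longer called (edgeR adjusted p = 0.384). Slc25a37 (mitoferrin-1), the iron carrier known from red cell precursors, had a log2 fold change of -0.12 (SE 0.102, edgeR adjusted p = 0.652). Red cell markers had no call, at a summed 602 to 875 scaled CPM in the ground controls and 586 to 988 in lunar gravity.

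Among the carriers of aspartate, glutamate and oxoglutarate, 1 of 4 tested was called, and it was lower. Over all genes tested the share called was 3.77%, and a single call in so short a list is no result about the group. All 4 had log2 fold changes below 0, where this share was 69.2% over the family's tested carriers and 49.8% over all genes tested. For 3 of them the groups did not overlap, all lower in lunar gravity, where the share over all genes tested was 20.6%. Slc25a22 (mitochondrial glutamate carrier 1; ENSMUSG00000019082, chromosome 7, 141429744 to 141437892, minus strand, GRCm38) brings glutamate into the matrix together with a proton. It stood at 42.3, 41.3 and 46.0 scaled CPM in GC1 to GC3, against 30.5, 30.4 and 34.7 scaled CPM in LG1 to LG3. Every lunar gravity library was below every ground control. The mean fell from 43.2 ± 2.47 to 31.9 ± 2.44 scaled CPM (SD, n = 3), to 0.739 of the ground control level (log2 fold change -0.44, SE 0.0895, 95% interval -0.62 to -0.25; edgeR adjusted p = 0.00495). Without GC3 it was -0.39 (edgeR adjusted p = 0.0339), and with GC3 counted as lunar gravity -0.24 and no longer called (edgeR adjusted p = 0.643). The cardiomyocyte markers Myh6, Actc1 and Ryr2 were lower in lunar gravity too, while the other 5 were not called, and their part in the result was not tested. No annotated exon of another gene overlaps Slc25a28 or Slc25a22.

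The carriers of the malate-aspartate shuttle itself did not pass the test. Slc25a11, which exchanges oxoglutarate for malate, had 405, 412 and 418 scaled CPM in GC1 to GC3, against 367, 404 and 373 in LG1 to LG3. Its groups did not overlap, but the difference did not pass the test (log2 fold change -0.11, SE 0.0536, edgeR adjusted p = 0.323). The exons of Slc25a11 overlap Rnf167 on the other strand. Slc25a13 (citrin) had 160.5, 144 and 148 scaled CPM in the ground controls and 149, 150.1 and 139.9 in lunar gravity, with the groups overlapping (log2 fold change -0.04, SE 0.0608, edgeR adjusted p = 0.821). The related Slc25a12 (aralar) had a log2 fold change of -0.11 (edgeR adjusted p = 0.313), with its lunar gravity libraries all below the ground controls.

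The carriers that serve ATP synthase gave no call in 3 tested. Slc25a4 had 3478, 3293 and 3352 scaled CPM in GC1 to GC3, against 3485, 3647 and 3661 in LG1 to LG3. The lunar gravity libraries were all above the ground controls, LG1 by little, and the log2 fold change of 0.09 (95% interval -0.01 to 0.20) did not pass the test (edgeR adjusted p = 0.398). Slc25a3 had 1375, 1357 and 1384 scaled CPM against 1262, 1409.5 and 1347, with the lunar gravity libraries on both sides of the ground controls (log2 fold change -0.03, SE 0.0518, edgeR adjusted p = 0.825). Slc25a5 had 220.4, 211 and 199.5 scaled CPM against 188, 194 and 212, and the groups overlapped (log2 fold change -0.08, SE 0.0602, edgeR adjusted p = 0.555). Only 71.8% of its exon reads were placed uniquely, so its level is less certain. As a share of the family's summed RPKM, Slc25a4 took 59.1%, 58.4% and 58.7% in GC1 to GC3, against 61.2%, 61.0% and 61.5% in LG1 to LG3.

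**Figure D3:**
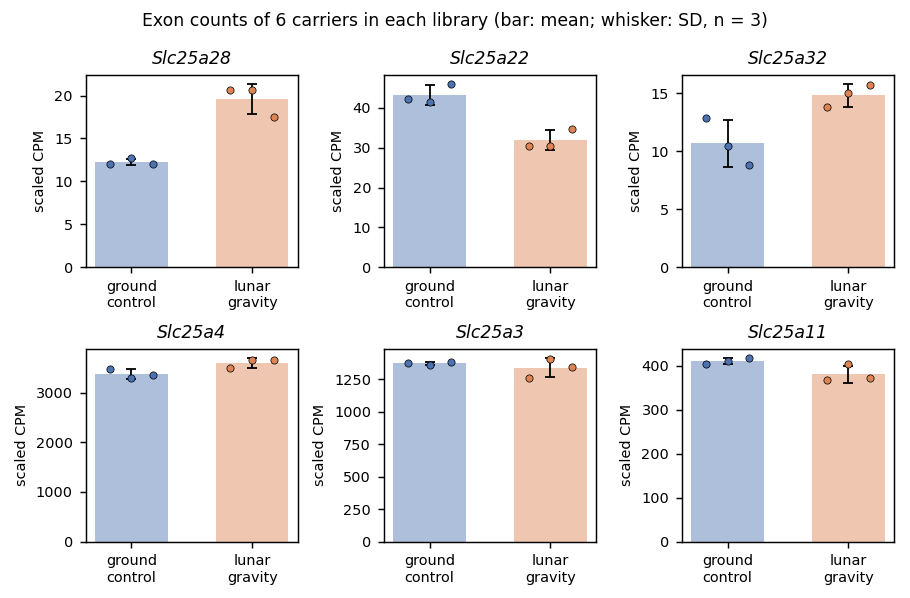
Scaled CPM of Slc25a28, Slc25a22, Slc25a32, Slc25a4, Slc25a3 and Slc25a11 in each library, with bars at the group mean and whiskers of 1 SD (n = 3). The groups lie apart for Slc25a28, Slc25a22, Slc25a32, Slc25a4 and Slc25a11 and overlap for Slc25a3, and of these only Slc25a28 and Slc25a22 passed the test.

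The ATP-Mg/phosphate carriers, which set the adenine nucleotide pool of the matrix in response to calcium, gave no call in 3 tested. The smallest p was that of Slc25a25, which had 9.08, 10.9 and 6.59 scaled CPM in the ground controls and 8.06, 8.48 and 8.16 in lunar gravity. The lunar gravity libraries lay inside the ground control range (log2 fold change -0.11, SE 0.180, edgeR adjusted p = 0.846). Its exons overlap Naif1 on the other strand, and only 58.2% of the exon reads of the related Slc25a23 were placed uniquely. Of the citrate and dicarboxylate carriers neither of the 2 tested was called. Slc25a1, which exports citrate for lipid synthesis, had 4.85, 7.90 and 6.74 scaled CPM against 5.21, 5.09 and 6.72 (log2 fold change -0.20, SE 0.211, edgeR adjusted p = 0.736). Its groups overlapped, and without GC2 the log2 fold change was -0.03.

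The carnitine and amino acid carriers gave no call in 5 tested. Slc25a20, on the route of long-chain fatty acids to oxidation, had 164, 151 and 168 scaled CPM in GC1 to GC3, against 138, 154 and 162 in LG1 to LG3. The groups overlapped (log2 fold change -0.09, SE 0.0650, edgeR adjusted p = 0.570). The smallest p was that of Slc25a15, the ornithine/citrulline carrier of the urea cycle, with 25.5, 24.3 and 20.8 scaled CPM against 14.4, 22.3 and 19.8. LG1 was the lowest library and LG2 lay inside the ground control range (log2 fold change -0.32, SE 0.138, edgeR adjusted p = 0.248), and without LG1 the log2 fold change was -0.16.

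Of the 9 tested carriers of vitamins, cofactors and glutathione none was called. The groups did not overlap for 4 of them, 1 higher and 3 lower, where the share over all genes tested was 20.6%. Slc25a32, which carries folate and has been assigned FAD transport, had 12.8, 10.4 and 8.79 scaled CPM in GC1 to GC3, against 13.8, 15.0 and 15.7 in LG1 to LG3. The groups lay apart, with GC1 nearest to the lunar gravity libraries. Its log2 fold change of 0.48 (SE 0.147, 95% interval 0.17 to 0.78) missed the threshold (edgeR adjusted p = 0.0766). Without GC1 it was 0.62 and called (edgeR adjusted p = 0.0353), and without GC3 it was 0.36 and not called (edgeR adjusted p = 0.261). Slc25a39 had 102, 104 and 89.8 scaled CPM against 98.3, 105 and 95.4, with the groups overlapping (log2 fold change 0.01, SE 0.0686, edgeR adjusted p = 0.965).

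The remaining carriers gave no call either. Of the pyrimidine nucleotide carriers, Slc25a36 had 126, 113 and 101 scaled CPM in the ground controls and 112, 97.6 and 109 in lunar gravity, overlapping (log2 fold change -0.10, SE 0.0749, edgeR adjusted p = 0.604). Among the 3 carriers related to uncoupling proteins, Slc25a30 had 5.64, 7.19 and 7.03 scaled CPM against 8.68, 7.92 and 9.96. Its lunar gravity libraries were all above the ground controls, and the log2 fold change of 0.42 (SE 0.178) did not pass the test (edgeR adjusted p = 0.241). Of the 6 outer-membrane and less characterised members, Slc25a34 had 133, 129 and 146 scaled CPM against 142, 149 and 114, with LG3 the lowest library (log2 fold change -0.01, SE 0.0872, edgeR adjusted p = 0.974). Slc25a53 had 2.50, 2.40 and 4.39 scaled CPM against 1.99, 2.12 and 2.28, with GC3 the highest library (log2 fold change -0.54, SE 0.308, edgeR adjusted p = 0.432). Without GC3 it was -0.20.

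Intron reads give a separate readout of the same libraries, since unspliced RNA is kept in RNA depleted of ribosomal RNA. In the test of unique intron reads, 1 of 38 carriers was called, beside 2.86% of the 11968 genes tested. Of those 342 calls over all genes, 43 were higher and 299 lower, and the lower calls alone made up 2.50% of the genes tested. Slc25a26 (the S-adenosylmethionine carrier; ENSMUSG00000045100, chromosome 6, 94500331 to 94604672, plus strand, GRCm38), which supplies the methyl donor to the matrix, fell. Its introns had 63.8, 66.5 and 66.2 scaled CPM in GC1 to GC3, against 41.5, 44.8 and 49.6 in LG1 to LG3. All 3 lunar gravity libraries were below the ground controls. The mean went from 65.5 ± 1.49 to 45.3 ± 4.09 scaled CPM (SD, n = 3; log2 fold change -0.53, SE 0.0974, edgeR adjusted p = 0.00484). Without GC3 it was -0.53 (edgeR adjusted p = 0.0171), and with GC3 counted as lunar gravity -0.37 and not called (edgeR adjusted p = 0.562). The exon counts of Slc25a26 lay apart in the same direction, at 19.9, 20.9 and 18.2 scaled CPM against 17.9, 16.1 and 16.8, without passing the test (log2 fold change -0.21, edgeR adjusted p = 0.400). Lrig1 overlaps Slc25a26 on the other strand, and the use of strand in the counting is not stated. Lrig1 intron reads had a log2 fold change of -0.11 (edgeR adjusted p = 0.662).

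The carriers called in the exon counts were not called in the introns. Slc25a28 introns had 16.7, 20.1 and 19.9 scaled CPM in the ground controls and 21.6, 19.7 and 20.01 in lunar gravity. These overlapped, with a log2 fold change of 0.11 and a 95% interval of -0.18 to 0.40 (edgeR adjusted p = 0.776). That interval ends only just below the exon interval, at 0.401 against 0.412. Exon and intron reads were scaled separately, so this narrow gap depends on the scaling. The exon over intron ratio of Slc25a28 was 0.721, 0.632 and 0.604 in GC1 to GC3, against 0.955, 1.05 and 0.876 in LG1 to LG3, a log2 difference of 0.56 with the groups apart. The ratio was also higher in lunar gravity for the other carriers called in either readout, by 0.32 with the groups apart for Slc25a26 and by 0.30 with the groups overlapping for Slc25a22. These ratios reuse the reads in which the carriers were called, so they are given as a description. Slc25a22 introns were thinly covered, at 15 to 42 reads, with 5.50, 4.62 and 8.35 scaled CPM against 4.17, 3.28 and 3.33. They were lower in lunar gravity without passing the test (log2 fold change -0.77, SE 0.279, edgeR adjusted p = 0.202). Intron reads were 41.8% to 43.5% of unique exon plus intron reads in the ground controls and 38.1% to 40.6% in lunar gravity. Of the reads filed as intronic, 26.6% to 31.4% belonged to mt-Rnr2, a mitochondrial ribosomal RNA whose gene has no intron. Without mitochondrially encoded genes the intron share was 36.8% to 37.8% against 32.6% to 34.4%, still apart, and the part of this shift in these values was not tested.

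**Figure D4:**
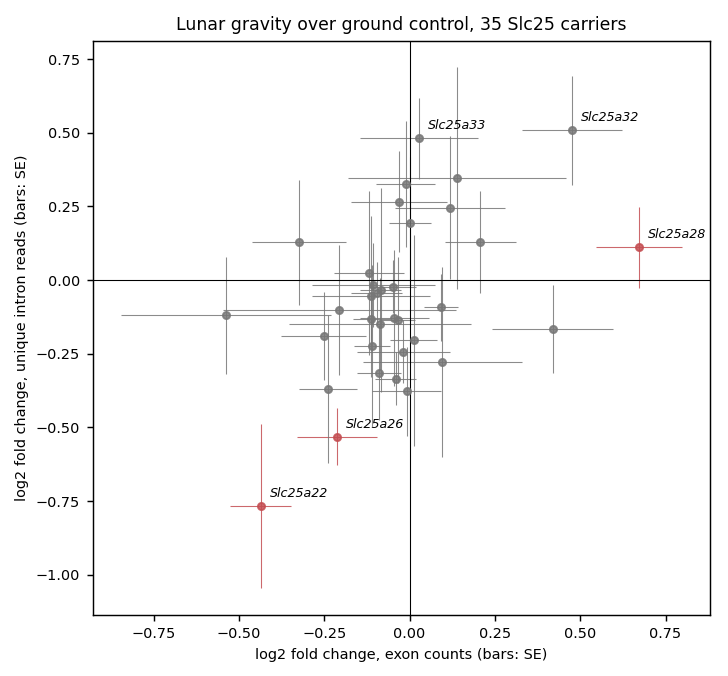
Log2 fold change of exon counts (horizontal) and of unique intron reads (vertical), lunar gravity over ground control, for the 35 carriers tested in both, with bars of 1 SE. Red marks carriers called in either readout: Slc25a28 at 0.67 in exons and 0.11 in introns, Slc25a22 at -0.44 and -0.77, and Slc25a26 at -0.21 and -0.53.

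The balance between related carriers was compared as the ratio of their RPKM within each library, which does not depend on scaling between libraries. In 3 of 7 pairs the groups did not overlap. The ratio of Slc25a28 to Slc25a37 was 1.21, 1.26 and 1.46 in GC1 to GC3, against 2.71, 2.22 and 1.97 in LG1 to LG3. The ratio of Slc25a4 to Slc25a5 was 9.14, 9.16 and 9.82 against 10.8, 11.2 and 10.1, and that of the glutathione carriers Slc25a39 to Slc25a40 averaged 17.3 ± 1.71 against 20.9 ± 0.551 (SD, n = 3). In each of these pairs the first gene took a larger share in lunar gravity, by log2 differences of 0.80, 0.19 and 0.27. Each had an exact two-sided permutation p of 0.10, the smallest that 3 against 3 libraries allow, and 0.233 after adjustment over the 7 pairs. The Slc25a28 to Slc25a37 ratio uses the exon reads in which Slc25a28 was called and is no separate evidence. The groups overlapped for Slc25a12 to Slc25a13, Slc25a22 to Slc25a18, Slc25a36 to Slc25a33 and Slc25a23 to Slc25a24, with exact permutation p of 0.2 to 1. Slc25a18, with 3 to 8 counts, was under the filter, so the ratio to it, at 17.2 to 49.2 in the ground controls, could not show a difference.

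**Figure D5:**
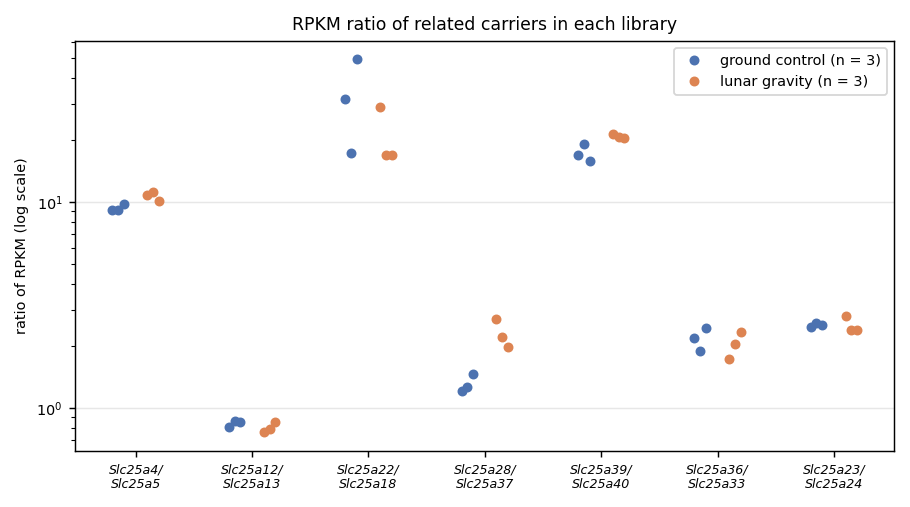
Ratio of RPKM between 7 pairs of related carriers in each library, on a log axis, with ground control in blue and lunar gravity in orange (n = 3 each). The lunar gravity libraries lie above the ground controls for Slc25a4 over Slc25a5, Slc25a28 over Slc25a37 and Slc25a39 over Slc25a40, and the groups overlap in the other pairs.

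Among 52 tested genes that work beside the carriers, none was called higher and 2 were called lower, or 3.85%, near the background of 3.77%. For 13 of the 52 the groups did not overlap, 3 higher and 10 lower, where the share over all genes tested was 20.6%. Got1, the cytosolic aspartate aminotransferase of the malate-aspartate shuttle, was the only call in 12 shuttle and carnitine enzymes. It had 816, 781 and 777 scaled CPM in GC1 to GC3, against 654, 665 and 684 in LG1 to LG3. The groups lay apart (log2 fold change -0.24, SE 0.0503, edgeR adjusted p = 0.00501), and the mean fell from 791 ± 21.8 to 668 ± 15.0 scaled CPM (SD, n = 3). Without GC1 the adjusted p was 0.0584 (edgeR), and with GC3 counted as lunar gravity it was 0.382 (edgeR). Got2, the matrix aminotransferase of the same shuttle, was named after its value was seen. It had a log2 fold change of 0.11 and was not called (edgeR adjusted p = 0.338), with its lunar gravity libraries all above the ground controls.

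Letm1, a cation exchanger of the inner membrane, was the only call in 18 other genes of inner-membrane transport, with 109.6, 121 and 112 scaled CPM against 89.9, 96.6 and 101. The groups lay apart (log2 fold change -0.26, SE 0.0659, edgeR adjusted p = 0.0269), but the call was lost in 9 of 22 alternatives, among them DESeq2 (adjusted p = 0.0543), library totals (edgeR adjusted p = 0.0748), GC3 counted as lunar gravity (edgeR adjusted p = 0.409) and the omission of GC2, LG1 or LG2 (edgeR adjusted p = 0.233, 0.119 and 0.0930). None of 4 tested carriers of the same fold under other symbols was called. The smallest p there was that of Ucp2, an uncoupling protein homologue, with 81.7, 84.8 and 83.3 scaled CPM against 65.0, 72.2 and 82.8. LG3 overlapped the ground controls (log2 fold change -0.18, SE 0.0780, edgeR adjusted p = 0.248), and without it Ucp2 was called lower (edgeR adjusted p = 0.0387). That was 1 call in 22 alternatives. With a library left out the log2 fold change of Ucp2 ran from -0.28 to -0.099, with edgeR adjusted p up to 0.639. Ucp3, the uncoupling protein homologue of muscle, named after its value was seen, had 23.2, 41.0 and 61.2 scaled CPM against 21.2, 21.2 and 26.2. Its ground controls were widely spread and GC1 overlapped the lunar gravity libraries (log2 fold change -0.87, SE 0.408, edgeR adjusted p = 0.436). Ucp3 was called lower without GC1 and under non-robust fitting. None of 18 outer-membrane channels and import factors was called. Timm22, the pore of the translocase that inserts carriers into the inner membrane, came nearest, with 20.2, 21.7 and 16.0 scaled CPM against 13.5, 14.1 and 15.1. Its groups lay apart (log2 fold change -0.44, SE 0.131, edgeR adjusted p = 0.0667), and without GC3 it was called lower at -0.55 (edgeR adjusted p = 0.0174). Timm22 was called in 3 of 21 alternatives. With a library left out its log2 fold change ran from -0.55 to -0.34, with edgeR adjusted p up to 0.342.

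In the authors' deposited table, which compares the columns headed PG with those headed GC, 0 of the 47 carriers had an adjusted p under 0.05. The authors' deposited table gives Slc25a28 as 1.43-fold higher (p = 0.0106) and Slc25a22 as 1.18-fold lower (p = 0.125). Its header files GC3 under PG, so 4 libraries stand against 2, unlike the grouping used above. With GC3 counted as lunar gravity, the edgeR log2 fold changes were 0.52 for Slc25a28 and -0.24 for Slc25a22.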

How the data were processed

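Total RNA depleted of ribosomal RNA was sequenced from 6 heart libraries, per the labels' protocols. The authors deposited 1 table of 49585 genes, for which the build GRCm38 (mm10) is named in the submitters' processing notes. The aligner, counter, annotation release and strand use were not given in the sources used here. The table holds, per the file headers, expression values, exon and intron reads and RPKM, and the authors' p-values and signed fold change (a score) from an EDGE test. The expression values the authors deposited were whole counts, in every gene the sum of unique exon reads and multi-mapped exon-exon reads. RPKM as deposited matched total exon reads over length and a library constant in 94.0% of values above 0 (relative tolerance 1e-06). RPKM is not TMM scaled, and the median log2 RPKM difference over 12255 genes was 0.12, so RPKM served for levels and within-library ratios only. Deposited starts, which count from 0, were raised by 1, and gene strand and overlaps came from GENCODE M21. Exon lengths are those of the deposited table.

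Counts and, separately, unique intron reads were filtered (filterByExpr, minimum count 10), TMM-scaled, and compared with edgeR 4.0.16 (robust quasi-likelihood fit, R 4.3.3) on 3 against 3 libraries. P-values were adjusted by Benjamini-Hochberg over all genes tested, and the threshold was 0.05. The biological coefficient of variation was 6.20% for exon and 8.79% for intron reads. Total counts of 6461213 to 8271553 set the precision, and limits from a count of 0 cover counting error only. The scripts were tested on simulated data, in which the share of false calls exceeded the threshold of 0.05 and many small changes were missed. Same-numbered libraries did not deviate together (correlations of 0.003, -0.054 and 0.048), so no pairing was used. Values per library are given for called carriers, the 8 of highest RPKM, the smallest p of each role list, called or smallest-p members of each partner list and called carriers of the intron fit. Slc25a12, Slc25a37, Got2, Ucp3, Slc25a40 and Lrig1 are named beside these. Members and lists were chosen with earlier results of these data known. The exon over intron ratio, total intron reads and the regrouping of GC3 for introns were added after seeing the data. Slc25a52, Mcub and Timm29 were not analysed here. Alternatives covered scaling, filters, DESeq2 1.42.0, limma voom 3.58.1, robustness, a replicate block, exon length, read columns, GC3 and each library left out.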

Additional observations from a re-analysis of the deposited data

How the results depend on the processing

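Slc25a22 was called in 21 of 22 alternatives and Slc25a28 in 20 of 21, the exception for both being GC3 counted as lunar gravity, and their log2 fold changes ran from -0.50 to -0.39 and from 0.63 to 0.75 with each library left out. The count of called carriers was 1 under DESeq2, whose independent filtering gave Slc25a28 no adjusted p, 0 with GC3 moved, and 2 to 3 with a library left out. The count over all genes was 765 with no filter, 307 under DESeq2, 286 under DESeq2 without independent filtering, 32 with GC3 moved and 219 to 463 with a library left out. The partner count was 1 under library totals, both DESeq2 runs and removal of the exon length trend, 0 with GC3 moved and 1 to 3 with a library left out. The intron count was 2 under library totals, no filter, DESeq2 and the replicate block, 0 with GC3 moved and 1 to 3 with a library left out, the additions being Slc25a13 (Slc25a33 under library totals, and also Slc25a42 without GC1). Paralog pairs lying apart numbered 3 to 5 with a library left out, the highest being without LG1. Groups that lie apart stay apart when a library is removed, so this count could not fall below 3 and does not test those pairs. With the replicate block the exon counts gave 2 carriers and 545 genes. Library totals moved the median of all genes by 0.044 in exons and 0.107 in introns (log2), and gave 288 of 481 called genes as higher where TMM gave 191 of 462. Slc25a32 was called under library totals (adjusted p = 0.0475), no filter (0.0354) and the replicate block with exon length trend removed (0.0497).

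Some values that had not been called changed sign. Slc25a3 was 0.0080 under library totals and -0.072 to 0.0081 with a library left out. Slc25a34 was 0.0020 under upper quartile scaling, 0.033 under library totals, 0.069 with GC3 moved and -0.085 to 0.099 with a library left out. Slc25a13 was 0.0025 under library totals and -0.074 to 0.0066 with a library left out. Slc25a39 was -0.084 with GC3 moved and -0.050 to 0.054 with a library left out. Slc25a25 was -0.28 to 0.076 with a library left out, and Slc25a53 was 0.12 with GC3 moved. The causes were not tested. At this depth and with 3 libraries per group, 28 of the 39 carriers had a 95% interval within 1.5-fold.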
